A study of Mus musculus with 6 samples.

Results

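The genes described here are 36 genes of the ATF4 stress response, amino acid transport and serine, glycine and folate metabolism, taken by symbol from a count table of mouse embryonic stem cells. All 36 were among the 21978 entries of the table, and all 36 passed the filter on low counts that left 16498 genes for testing. Their smallest count in any library was 97. They were followed in 6 poly(A)-selected libraries that formed 3 groups of 2, and the comparisons ask what differs without DGCR8, which binds primary miRNA transcripts for the nuclease Drosha, and between cells with either form of the protein. KO cells carried the genotype DGCR8 -/- and were not transfected (libraries 1 and 3). The wt cells carried the genotype label DGCR8 wt/wt and the vector pSB ET iE-FlagDGCR8-wt (clones 12 and 16), and the E518K cells the label DGCR8 E518K/E518K and the vector pSB ET iE-FlagDGCR8-E518K (clones 8 and 15). Both vectors were brought in with pCMV(CAT)-SB100X, which by its name encodes the transposase. All 3 groups had the strain label NBA1-19349, were induced with 300 ng/mL doxycycline for 48 h, and grew without feeders in medium with serum, LIF, non-essential amino acids, glutamine, β-mercaptoethanol and inhibitors of GSK3 and MEK. A difference between KO and either other group therefore also separates cells without a transposon from cells with one, and the 2 cannot be told apart. Every library had doxycycline, an antibiotic that also inhibits mitochondrial ribosomes, so no comparison bears on its effect.

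ATF4 is a transcription factor whose protein is made mainly when kinases such as PERK and GCN2 phosphorylate the initiation factor eIF2α during endoplasmic reticulum stress or amino acid shortage. It raises genes for amino acid uptake, for the synthesis of asparagine, serine, glycine and proline, and for folate enzymes, as well as regulators of the response itself. Because ATF4 protein is controlled at translation, the level of its mRNA does not give the level of the protein. Mouse embryonic stem cells are known for their high use of threonine and glycine, which feed the folate cycle.

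Levels are given as CPM, which are counts scaled to the size of the library. Library totals ranged from 73642784 to 75121971 counts. Dgcr8 itself stood at 39.96 and 37.1 CPM in KO, 820.6 and 420.2 in E518K, and 195.5 and 992.4 in wt, so KO was lowest in both libraries, while the wt clones differed widely from each other. Dgcr8 overlaps another gene and can share reads with it. All 10 embryonic stem cell markers looked for were present, with a summed level of 5057 to 5137 CPM in KO, 6647 to 6745 in E518K and 6061 to 7028 in wt. The 8 fibroblast markers, which would come from feeder cells, summed to 7.05 to 7.70 CPM in KO, 4.32 to 5.52 in E518K and 8.36 to 8.86 in wt. Of these 8, 1 was at 0 in both E518K libraries and 1 in both wt libraries. The 3 mesoderm markers, mostly Eomes, summed to 14.7 to 16.1 CPM in KO, 30.05 to 31.7 in E518K and 27.3 to 30.4 in wt, and the 4 neural markers, mostly Tubb3, to 69.3 to 73.3, 67.0 to 76.4 and 52.0 to 55.1. The 5 endoderm markers summed to 1.67 to 2.01, 1.18 to 1.62 and 2.01 to 2.06. The part of other cell types in the results was not tested. The counts took in introns as well as exons, so levels are compared between libraries and not between genes. In cultures measured in bulk, fewer cells of a kind and less RNA per cell cannot be told apart. Fold changes are log2 values with their standard error from an edgeR fit over all 6 libraries, and a gene is said to have risen or fallen where the edgeR adjusted p over all tested genes was under 0.05. The comparisons share libraries, KO against wt and E518K against wt sharing the wt clones, so they are not independent of each other. Leaving out 1 library leaves its group with a single library and no spread of its own, so the adjusted p then rests on the spread of the other groups. The wt group had the widest spread, and fits without a wt clone no longer measure it. A gene that passes only in such a fit is not read as a further difference. In comparisons with wt it shows dependence on 1 clone. E518K against KO holds no wt library, so a call gained there does not show dependence on a wt clone. The log2 fold change of Slc7a1, for instance, was 0.24 with all 6 libraries and without either wt clone. Ddit4, Eif2ak3, Mthfd1l, Slc7a1, Slc1a4 and Cbs also passed in E518K against KO with only the 4 libraries compared.

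Most of the 36 genes were lower in cells without DGCR8 than in wt cells. The members had been chosen with earlier results of these data known, so their counts beside those of all tested genes are a description. Of the 36, 26 fell and 2 rose, so 28 passed, where 57.2% of all tested genes passed, 29.7% of them being lower and 27.4% higher in KO. The members that fell included Chac1, Gldc, Nupr1 and Phgdh, and 17 of the 36 members fell at least 2-fold, against 10.0% of all tested genes. The median log2 fold change was -0.80 over the members and -0.02 over all tested genes. KO and wt libraries did not overlap for 34 of the 36 members, 30 lower and 4 higher in KO, and for 81.7% of all tested genes. The members by role were stress factors and kinases (7 of 11 fell and 1 rose), serine, glycine and folate enzymes (10 of 11 fell), other amino acid enzymes (3 of 6 fell) and transporters (6 of 8 fell and 1 rose).

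**Figure D1:**
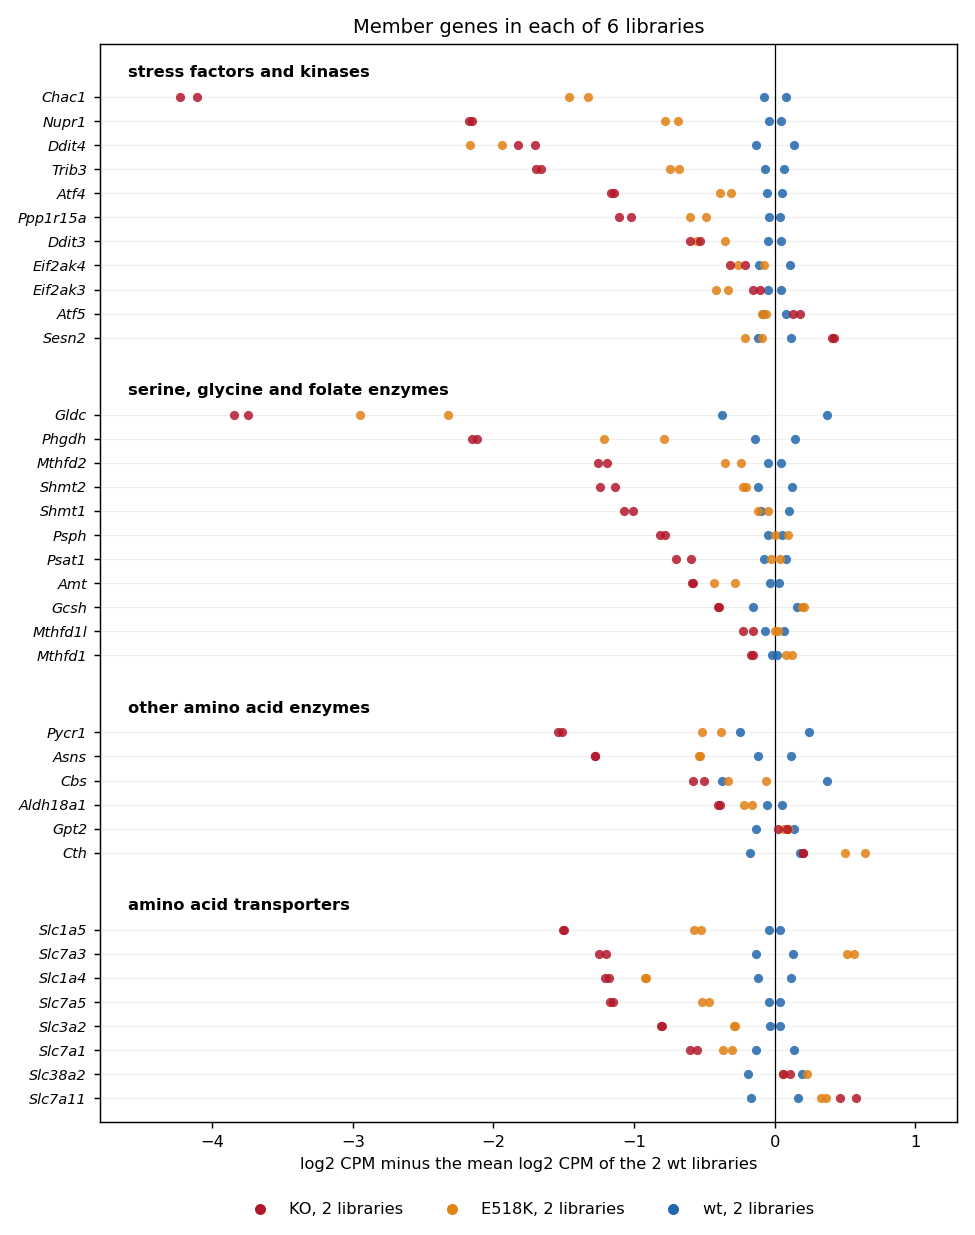
Level of each of the 36 member genes in each library, as log2 CPM minus the mean log2 CPM of the 2 wt libraries; rows are genes grouped by role and points are single libraries. The KO points lie left of both wt points for 30 genes, farthest for Chac1 and Gldc. The mean CPM rises in the order KO, E518K, wt for 22 genes.

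The mean CPM rose in the order KO, E518K, wt for 22 of the 36 members and for 27.6% of all tested genes, whether or not the differences passed. All 3 steps of that order passed for 13 of the 36, among them Atf4, Chac1, Asns and Phgdh, and for 3.60% of all tested genes. Both shares over all tested genes also count the genes that were higher in KO. Among genes with a lower mean CPM in KO than in wt, E518K lay between for 22 of 30 members (73.3%) and for 53.8% of all such genes. Against wt, 18 members fell in E518K and 2 rose, a total of 20, where 23.7% of all tested genes passed (12.5% lower and 11.3% higher). Those that fell at least 2-fold were 3 (Chac1, Ddit4 and Gldc) and those that rose as far were 0, against 4.34% and 2.3% of all tested genes, and the median was -0.29 over the members and -0.02 over all genes. Against KO, 23 members rose in E518K and 2 fell, a total of 25, where 41.8% of all tested genes passed (22.0% higher and 19.8% lower), with a median of 0.52 over the members. Of the 36 members, 6 rose and 0 fell at least 2-fold, against 3.97% and 6.44% of all tested genes. The groups did not overlap for 26 of 36 members in E518K against wt (62.0% of all tested genes) and for 32 of 36 in E518K against KO (80.5%). The counts in E518K against wt rest on a spread estimated over all 6 libraries, the KO libraries included. With only the 4 libraries compared, 6 of the 20 calls of members were lost, and the calls over all genes went from 3917 to 1999. The 18 lower calls in E518K against wt became 9 without E518K clone 15, and the 2 higher calls became 1 without E518K clone 8, 0 without E518K clone 15 and 5 without wt clone 16. The 2 rises in KO against wt became 1 without either KO library or either E518K clone and 5 without wt clone 16. The 2 falls in E518K against KO became 1 without any 1 of the KO or E518K libraries and 4 without either wt clone. Of all calls in E518K against wt, 47.5% were higher, and the share was 37.5% when upper-quartile factors replaced TMM factors and 26.8% when limma was run on log2(TPM + 1). In E518K against KO that share was 52.7%, and 40.7% in the same limma run.

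**Figure D2:**
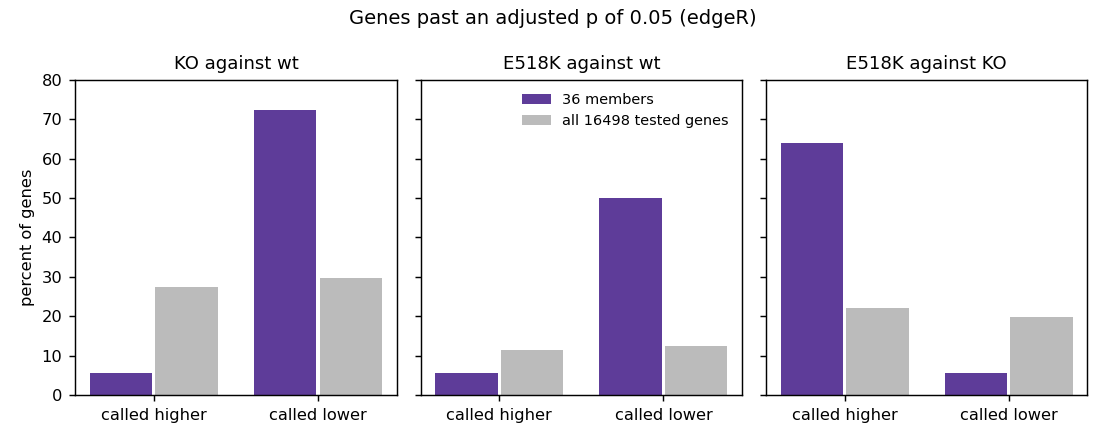
Percent of genes that passed the edgeR test in each direction, for the 36 members (purple) and for all 16498 tested genes (grey), in 3 panels, 1 per comparison. Members are mostly in the lower class in KO against wt (26 of 36) and in the higher class in E518K against KO (23 of 36). In E518K against wt, 18 of 36 are in the lower class, 2 in the higher class and 16 in neither.

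Several members carry a known ATF4 binding sequence at their start. The composite element bound by ATF4 with C/EBP proteins was searched as TGATGNAA on both strands (TTNCATCA on the other), in RefSeq windows on GRCm38.p6 that run from 250 bases before a gene's start to 50 after it. The 32 members with a window included 7 with a match, against 4.51% of 27025 gene symbols. Slc7a3, Slc7a5, Slc1a5 and Cth had no window. The stretches around the matches are shown, 5′ to 3′ on the strand of the gene with the match in capitals, because these 7 genes include both the largest fall among the members in KO and 1 of the 2 rises.
Chac1, chr2:119351023-119351082, plus strand: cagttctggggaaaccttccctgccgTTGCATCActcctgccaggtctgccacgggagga
Nupr1, chr7:126625562-126625591, minus strand: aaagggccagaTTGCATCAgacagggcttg
Pycr1, chr11:120643818-120643877, minus strand: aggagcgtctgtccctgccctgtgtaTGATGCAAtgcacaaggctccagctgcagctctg
Asns, chr6:7693214-7693243, minus strand: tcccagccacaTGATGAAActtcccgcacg
Slc1a4, chr11:20332699-20332728, minus strand: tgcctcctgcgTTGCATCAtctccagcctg
Trib3, chr2:152344028-152344057, minus strand: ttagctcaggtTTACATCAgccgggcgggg
Slc7a11, chr3:50443627-50443705, minus strand: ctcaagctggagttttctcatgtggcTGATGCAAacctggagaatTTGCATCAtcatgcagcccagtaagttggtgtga

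Counted from the RefSeq start, the matches begin 193 bases before it in Chac1, 110 in Nupr1, 103 in Pycr1, 23 in Asns and 4 in Slc1a4, and at base 15 after it in Trib3. Slc7a11 has a pair of them in opposite orientation, 66 and 47 bases before its start. The RefSeq starts are not always those of the GENCODE spans given elsewhere: they lie 45 bases inside the GENCODE span for Asns and 5391 bases inside it for Nupr1, so that both of these matches are within the GENCODE gene, and 13 bases inside it for Chac1 and 21 for Pycr1. For Trib3 the RefSeq start lies 28 bases upstream of the GENCODE start, so that its match lies before the GENCODE span. In KO against wt, 6 of these 7 genes fell and Slc7a11 rose, with a median log2 fold change of -1.55. Of the 25 members whose window held no match, 17 fell and 1 rose, with a median of -0.58, where 29.7% of all tested genes fell and 27.4% rose. In E518K against wt, 5 of the 7 and 11 of the 25 fell and none rose, with medians of -0.72 and -0.22, where 12.5% of all tested genes fell and 11.3% rose. Whether members with and without a match differ was not tested. A match is a run of letters and does not show that ATF4 bound there, and windows without one can hold other forms of the element or hold it elsewhere in the gene.

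Among the stress factors, Atf4 (chromosome 15, 80255184 to 80257541, plus strand, GRCm38) was measured at 133.3 and 131.6 CPM in KO, 225.3 and 237.7 in E518K, and 305.7 and 283.3 in wt. The 3 groups did not overlap and kept this order in all libraries. The log2 fold change was -1.15 ± 0.07 in KO against wt (adjusted p = 3.46e-05), -0.35 ± 0.06 in E518K against wt (adjusted p = 0.0111), and E518K lay above KO by 0.81 ± 0.07 (adjusted p = 2.86e-04). The call in E518K against wt was lost without E518K clone 8 (-0.31, adjusted p = 0.0737) or clone 15 (-0.38, adjusted p = 0.0704).

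Chac1 (chromosome 2, 119351229 to 119354381, plus strand), whose enzyme degrades glutathione and which is a known target of ATF4, had the largest difference of the 36 genes in KO. It was measured at 1.25 and 1.36 CPM in KO, against 8.52 and 9.35 in E518K and 24.8 and 22.3 in wt. It fell 17.99-fold in KO against wt (-4.17 ± 0.14, adjusted p = 1.01e-05) and 2.64-fold in E518K against wt (-1.40 ± 0.12, adjusted p = 0.00131), and was 6.83-fold higher in E518K than in KO (2.77 ± 0.14). Trib3, a pseudokinase that feeds back on ATF4, followed the same order, with 10.3 and 10.0 CPM in KO, 19.4 and 20.2 in E518K, and 31.0 and 34.0 in wt. Nupr1, a small chromatin-associated stress protein, stood at 4.54 and 4.61 CPM in KO, 12.0 and 12.8 in E518K, and 19.9 and 21.1 in wt. Neither gene overlapped between any pair of groups, and their changes in KO against wt were -1.68 ± 0.10 and -2.17 ± 0.11. In E518K against wt they stood at -0.72 ± 0.09 and -0.73 ± 0.11.

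Ddit4, an inhibitor of mTORC1 that also responds to hypoxia and p53, did not take the intermediate position. Its level was 31.7 and 29.2 CPM in KO, 27.1 and 23.1 in E518K, and 113.6 and 94.3 in wt. Both E518K libraries lay below both KO libraries, and wt was apart from both groups, with -1.77 ± 0.12 in KO against wt and -2.05 ± 0.12 in E518K against wt (adjusted p = 5.11e-04). E518K and KO differed by -0.28 ± 0.12 (adjusted p = 0.0967), which passed without wt clone 12 or 16 (adjusted p = 0.0223 and 0.0222). Ddit3, which encodes the death-associated factor CHOP, was at 11.005 and 11.6 CPM in KO, 13.1 and 11.4 in E518K, and 17.2 and 16.2 in wt. Both KO and E518K lay below wt, with -0.57 ± 0.12 and -0.45 ± 0.12, and KO and E518K overlapped. Leaving out KO library 1 ended the call for KO (adjusted p = 0.0590), and leaving out KO library 1, KO library 3, E518K clone 8 or E518K clone 15 ended that for E518K (adjusted p = 0.0946, 0.0947, 0.0628 and 0.184). Ddit3 overlaps Mars, the gene of the methionyl-tRNA synthetase, which stood at -0.53 ± 0.07 in KO against wt and can share reads with it, and the part of this overlap in the value of Ddit3 was not tested.

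Ppp1r15a encodes GADD34, which brings a phosphatase to eIF2α and so ends the response. It stood at 28.3 and 26.8 CPM in KO, 41.1 and 37.9 in E518K, and 56.0 and 59.2 in wt, with no overlap between groups. It fell by 1.06 ± 0.08 in KO and fell by 0.54 ± 0.08 in E518K against wt, the latter call being lost without E518K clone 15 (adjusted p = 0.0601). Its span overlaps Tulp2, which changed less in KO against wt (-0.30 ± 0.07).

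The kinases and the remaining stress genes moved little or in the other direction. Eif2ak3, the gene of PERK, stood at 22.7 and 21.9 CPM in KO, 18.3 and 19.4 in E518K, and 23.6 and 25.3 in wt, and passed only as lower in E518K against wt (-0.38 ± 0.09, adjusted p = 0.0258). That call was lost without KO library 1 or 3 (adjusted p = 0.0899 and 0.0895) and without E518K clone 8 or 15 (adjusted p = 0.115 and 0.101), and the difference of E518K from KO (-0.25 ± 0.09) passed without wt clone 12 or 16 (adjusted p = 0.0212 and 0.0217). Eif2ak4, the gene of the amino acid sensor GCN2, passed in no comparison, with -0.27 ± 0.11 in KO against wt (adjusted p = 0.0648). Without wt clone 16 it stood at -0.38 in KO and -0.27 in E518K against wt, and without wt clone 12 at -0.15 in KO. Sesn2, a stress-induced inhibitor of mTORC1, was highest in KO, at 179.8 and 182.1 CPM against 127.5 and 117.5 in E518K and 125.0 and 147.4 in wt. It rose by 0.41 ± 0.09 in KO against wt (adjusted p = 0.00659) and fell by 0.56 ± 0.09 in E518K against KO, while E518K and wt overlapped and differed (-0.26, adjusted p = 0.0126) without wt clone 12. Atf5, a factor related to ATF4, had 63.8 and 66.1 CPM in KO, 55.9 and 54.8 in E518K, and 61.7 and 55.1 in wt. Its fall of 0.23 ± 0.08 in E518K against KO (adjusted p = 0.0482) was lost without KO library 1 or 3 (adjusted p = 0.183 and 0.280) and without E518K clone 8 or 15 (adjusted p = 0.147 and 0.207), and it was higher in KO than in wt without wt clone 12 (0.24, adjusted p = 0.0109). Atf5 overlaps Nup62 and Il4i1, and reads of the 3 genes cannot be fully separated.

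Serine is made from a glycolytic intermediate by PHGDH, PSAT1 and PSPH in turn, and the data differed along these steps. Phgdh, the first and committed step, stood at 38.4 and 39.2 CPM in KO, 98.7 and 73.6 in E518K, and 154.3 and 188.1 in wt. All 3 groups were apart, with -2.14 ± 0.15 in KO against wt (adjusted p = 7.34e-05) and -0.99 ± 0.15 in E518K against wt (adjusted p = 0.00558). Psat1, the second step, had 166.9 and 179.3 CPM in KO, 279.2 and 266.2 in E518K, and 286.8 and 256.9 in wt. Psph, the last step, had 36.3 and 37.3 CPM in KO, 68.4 and 64.1 in E518K, and 66.3 and 61.8 in wt. For both, KO lay below every other library and E518K overlapped wt. Psat1 fell by 0.65 ± 0.08 and Psph fell by 0.80 ± 0.07 in KO against wt, while the log2 difference of E518K from wt was 0.00 ± 0.08 for Psat1 (adjusted p = 0.973) and 0.05 ± 0.07 for Psph (adjusted p = 0.662).

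**Figure D3:**
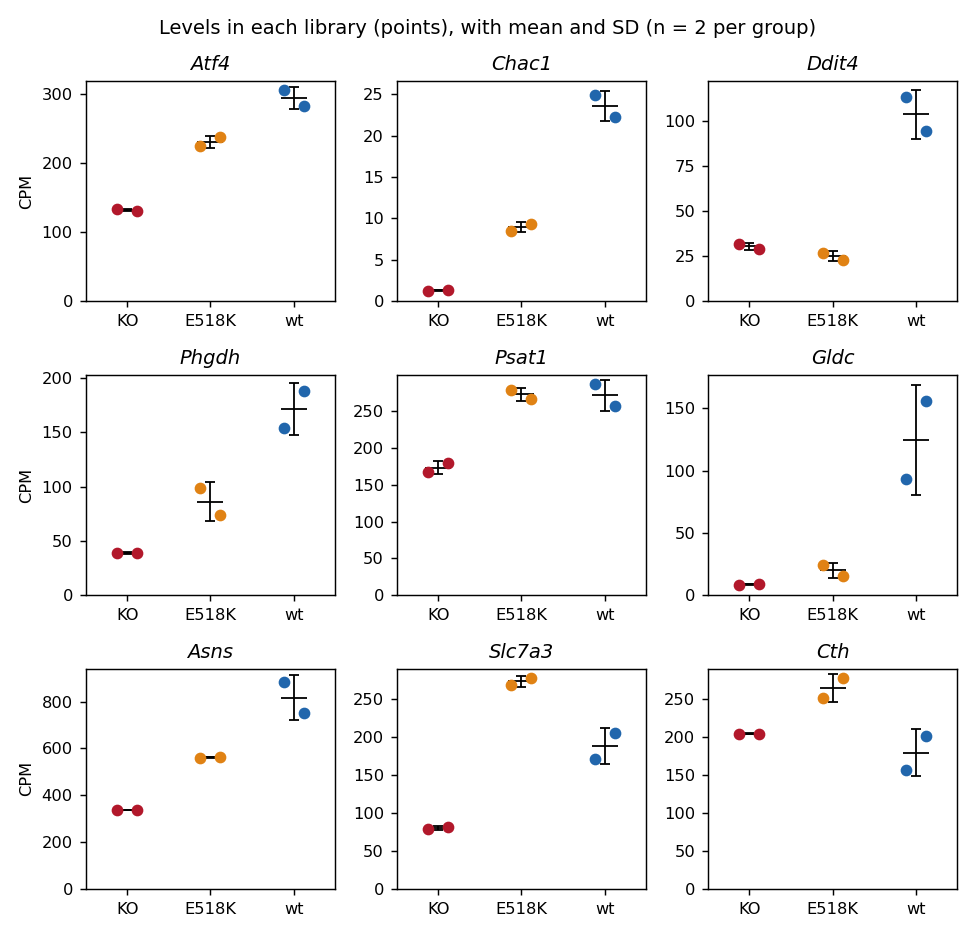
CPM of 9 member genes in KO, E518K and wt; points are single libraries, and the bar and whiskers are the mean and SD of 2 libraries. Atf4, Chac1, Phgdh and Asns rise from KO through E518K to wt, E518K lies below KO for Ddit4 and near wt for Psat1, and it lies above both other groups for Slc7a3 and Cth.

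The glycine cleavage system breaks glycine down in mitochondria and hands its carbon to folate, and its subunits changed by different amounts. Gldc, the glycine decarboxylase (chromosome 19, 30098447 to 30175429, minus strand), stood at 8.37 and 8.995 CPM in KO, 24.01 and 15.6 in E518K, and 93.1 and 155.8 in wt. It fell 14.3-fold in KO (-3.84 ± 0.30) and 6.29-fold in E518K (-2.65 ± 0.28, adjusted p = 0.00220) against wt. The 2 libraries differed 1.67-fold in wt and 1.54-fold in E518K, and both wt libraries lay above all others. The rise in E518K over KO (1.19 ± 0.28, adjusted p = 0.0131) was lost without KO library 1 or 3 (adjusted p = 0.0672 and 0.0535) or E518K clone 8 (0.85, adjusted p = 0.105).

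Amt, the aminomethyltransferase of the same system, had 95.1 and 94.5 CPM in KO, 117.1 and 105.4 in E518K, and 138.9 and 145.3 in wt. Its groups did not overlap, and it fell by 0.58 ± 0.07 in KO and fell by 0.35 ± 0.07 in E518K against wt. The latter call was lost without KO library 1 or 3 (both adjusted p = 0.0531) or E518K clone 15 (adjusted p = 0.106), and its rise in E518K over KO (0.23 ± 0.07) without KO library 1 or 3 (adjusted p = 0.182 and 0.199) or E518K clone 8 (adjusted p = 0.178). Gcsh, the lipoyl carrier protein, had 94.1 and 94.3 CPM in KO, 142.5 and 143.9 in E518K, and 138.5 and 111.6 in wt, and passed as lower in KO against wt (-0.41 ± 0.10) and higher in E518K against KO (0.60 ± 0.10). The first of these calls was lost without KO library 1 or 3 (adjusted p = 0.0631 and 0.0626), and without wt clone 12 it was also higher in E518K than in wt (0.36, adjusted p = 0.00157). Dld, the dehydrogenase that this system shares with pyruvate dehydrogenase, is not a member and went the other way, at 55.1 and 54.5 CPM in KO, 30.5 and 38.3 in E518K, and 29.1 and 26.5 in wt (0.98 ± 0.12 in KO against wt).

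SHMT1 in the cytosol and SHMT2 in mitochondria convert serine to glycine while loading folate. Shmt1 stood at 87.2 and 91.3 CPM in KO, 177.2 and 168.9 in E518K, and 196.6 and 171.4 in wt, and Shmt2 at 139.9 and 150.9 in KO, 287.4 and 283.3 in E518K, and 360.1 and 304.5 in wt. KO lay below every other library, with -1.04 ± 0.08 and -1.19 ± 0.09 against wt, and E518K against wt did not pass (-0.09 ± 0.08, adjusted p = 0.455, and -0.22 ± 0.09, adjusted p = 0.112). Without wt clone 16, E518K against wt stood at -0.18 for Shmt1 and -0.34 for Shmt2. Without wt clone 12, Shmt1 stood at 0.017. Shmt2 overlaps Ndufa4l2, which had 28.1 and 11.9 CPM in wt and 0.142 and 0.117 in KO, and its part in the value of Shmt2 was not tested. Shmt1 overlaps Smcr8, which moved in the opposite direction (0.25 ± 0.07).

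The folate enzymes differed in how far they moved. Mthfd2, the mitochondrial dehydrogenase and cyclohydrolase that ATF4 is known to control, stood at 48.7 and 50.8 CPM in KO, 90.9 and 98.5 in E518K, and 120.2 and 112.6 in wt. It fell by 1.23 ± 0.07 in KO and fell by 0.30 ± 0.07 in E518K against wt (adjusted p = 0.0266), the latter call being lost without KO library 1 or 3 (both adjusted p = 0.0821) and without E518K clone 8 or 15 (adjusted p = 0.134 and 0.0871). Mthfd1, the cytosolic enzyme, was at 328.8 and 332.6 CPM in KO, 403.0 and 392.2 in E518K, and 375.4 and 365.4 in wt. Its changes were small, with -0.16 ± 0.05 in KO against wt (adjusted p = 0.0360), and E518K lay above KO by 0.27 ± 0.05 (adjusted p = 0.00747). Without KO library 1 or 3 both were lost (adjusted p = 0.227 and 0.190, and adjusted p = 0.0966 and 0.0824). Mthfd1l, which releases formate from mitochondria, passed in no comparison, at -0.19 ± 0.07 in KO against wt (adjusted p = 0.0513). Without wt clone 16 it passed as lower in KO than in wt (-0.26, adjusted p = 0.00288), and without wt clone 12 or 16 as higher in E518K than in KO (adjusted p = 0.00510 and 0.00474).

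Asns, the asparagine synthetase and a standard readout of the amino acid response (chromosome 6, 7675169 to 7693254, minus strand), stood at 336.0 and 335.6 CPM in KO, 560.9 and 564.6 in E518K, and 884.5 and 749.9 in wt. It fell by 1.28 ± 0.08 in KO and fell by 0.54 ± 0.08 in E518K against wt (adjusted p = 0.00583), the latter call being lost without E518K clone 15 (-0.53, adjusted p = 0.0707). Proline is made by ALDH18A1 and then PYCR1. Pycr1 had 16.1 and 15.8 CPM in KO, 35.4 and 32.2 in E518K, and 54.6 and 38.8 in wt. It fell by 1.55 ± 0.16 in KO against wt and stood at -0.47 ± 0.15 in E518K against wt (adjusted p = 0.0660), which passed without wt clone 16 (-0.69, adjusted p = 2.81e-04). Aldh18a1 ranged from 163.5 to 224.0 CPM over the 6 libraries and fell by 0.40 ± 0.06 in KO against wt. Its rise in E518K over KO (0.21 ± 0.06, adjusted p = 0.0351) was lost without KO library 1 or 3 (adjusted p = 0.208 and 0.189) and without E518K clone 8 or 15 (adjusted p = 0.148 and 0.0626), and without wt clone 12 it passed as lower in E518K than in wt (-0.24, adjusted p = 0.00989).

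Cysteine is made from homocysteine by CBS and then CTH. Cth was highest in E518K, at 252.0 and 278.4 CPM, against 205.1 and 204.4 in KO and 157.5 and 201.3 in wt. It rose by 0.56 ± 0.11 in E518K against wt (adjusted p = 0.0150) and by 0.37 ± 0.11 against KO (adjusted p = 0.0349), and the difference of KO from wt was 0.19 ± 0.11 (adjusted p = 0.190), or 0.37 (adjusted p = 0.00111) without wt clone 16. Its call against wt ended without E518K clone 8 or 15 (adjusted p = 0.0572 and 0.119), and its call against KO without KO library 1 or 3 (adjusted p = 0.136 and 0.140) or E518K clone 8 or 15 (adjusted p = 0.0832 and 0.166). Cbs passed in no comparison, though with DESeq2 it passed as lower in KO against wt (-0.58, adjusted p = 0.0143). The wt clones differed 1.68-fold for it, at 79.1 and 47.1 CPM, the widest gap between paired libraries among the 36 genes, against 43.0 and 40.7 in KO. Without wt clone 16, Cbs stood at -0.92 in KO and -0.56 in E518K against wt. Without wt clone 12 these values were -0.17 and 0.19. E518K lay above KO by 0.36 when wt clone 12 or 16 was left out. Gpt2, the mitochondrial alanine aminotransferase, ranged from 86.1 to 103.9 CPM over all 6 libraries and passed nowhere. Without wt clone 16, Gpt2 stood at 0.19 in KO and 0.22 in E518K against wt, and without wt clone 12 at -0.080 and -0.053.

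Of the 8 transporters, 6 were lower in KO than in wt. Slc1a5, which carries glutamine and other neutral amino acids, stood at 70.1 and 70.4 CPM in KO, 138.6 and 133.6 in E518K, and 194.1 and 204.5 in wt. Its groups were all apart, with -1.50 ± 0.06 in KO and -0.55 ± 0.06 in E518K against wt (adjusted p = 0.00239). Slc7a5 and Slc3a2 encode the light and heavy chains of the leucine exchanger LAT1. Slc7a5 had 136.8 and 138.8 CPM in KO, 215.7 and 222.6 in E518K, and 299.6 and 316.5 in wt, and Slc3a2 had 131.3 and 130.5, 187.2 and 187.6, and 222.8 and 234.3. Both kept the order KO, E518K, wt in every library, with -1.16 ± 0.06 and -0.80 ± 0.06 in KO and -0.49 ± 0.06 and -0.29 ± 0.06 in E518K against wt. The E518K call of Slc3a2 was lost without KO library 1 or 3 (adjusted p = 0.0645 and 0.0643) and without E518K clone 8 or 15 (adjusted p = 0.0722 and 0.0981).

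Slc1a4, a carrier of serine, alanine and cysteine, stayed close to KO in E518K. It stood at 18.9 and 19.3 CPM in KO, 23.2 and 23.0 in E518K, and 40.2 and 47.5 in wt, and fell 2.29-fold in KO (adjusted p = 1.24e-04) and 1.90-fold in E518K against wt. E518K against KO did not pass (0.27 ± 0.10, adjusted p = 0.0625), and did without wt clone 12 or 16 (adjusted p = 0.00593 and 0.00633). The cationic carriers Slc7a1 and Slc7a3, which bring in arginine and lysine, differed from each other. Slc7a1 had 118.5 and 122.9 CPM in KO, 139.1 and 145.4 in E518K, and 163.8 and 197.5 in wt, and fell by 0.58 ± 0.09 in KO and fell by 0.34 ± 0.09 in E518K against wt. The latter call was lost without KO library 1 or 3 (both adjusted p = 0.0853) and without E518K clone 8 or 15 (adjusted p = 0.174 and 0.155). The difference of E518K from KO (0.24 ± 0.09, adjusted p = 0.0783) passed without wt clone 12 or 16 (adjusted p = 0.00211 and 0.00197).

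Slc7a3 (chromosome X, 101079210 to 101086020, minus strand) was the only member that fell in KO and rose in E518K against wt. Its level was 78.7 and 81.6 CPM in KO, 268.0 and 277.6 in E518K, and 171.1 and 205.2 in wt, with no overlap between groups. The log2 fold change was -1.23 ± 0.09 in KO against wt (adjusted p = 8.54e-05), 0.54 ± 0.09 in E518K against wt (adjusted p = 0.00822), and E518K lay above KO by 1.77 ± 0.09 (adjusted p = 9.44e-05). The rise over wt did not pass without E518K clone 15 (0.52, adjusted p = 0.0750) or in limma on log2(TPM + 1) (adjusted p = 0.0649).

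Slc7a11, the cystine importer that is also controlled by NRF2, was the other exception. It had 6.87 and 7.40 CPM in KO, 6.40 and 6.25 in E518K, and 4.43 and 5.57 in wt, so wt was lowest without overlap. Its rise in KO against wt (0.51 ± 0.16, adjusted p = 0.0300) was lost without any 1 library other than wt clone 16, with adjusted p from 0.0569 without wt clone 12 to 0.186 without KO library 3. Without wt clone 16 it was also higher in E518K than in wt (0.51, adjusted p = 0.0223). Slc38a2, the SNAT2 carrier that amino acid shortage is known to induce, passed in no comparison, and its wt clones (227.4 and 296.8 CPM) spanned both KO libraries (280.6 and 270.2). When wt clone 16 was left out, Slc38a2 stood at 0.27 in KO and 0.34 in E518K against wt. When wt clone 12 was, it stood at -0.11 and -0.042.

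The place of E518K between KO and wt was computed for the 17 members that differed at least 2-fold between KO and wt, all of them lower in KO, as a percent on mean log2 CPM with KO at 0 and wt at 100. It was between these ends for 15 of 17, with a median of 63.4%. For the 965 of all tested genes that were at least 2-fold lower in KO and had an average log2 CPM of at least 1, the median was 56.9%. Ddit4 (-16.1%), Slc1a4 (23.0%) and Gldc (30.5%) were nearest to KO. Ppp1r15a (48.8%), Phgdh (53.2%), Trib3 (57.4%), Slc7a5 (57.7%), Asns (58.3%), Slc1a5 (63.4%), Nupr1 (66.2%), Chac1 (66.5%), Atf4 (69.9%) and Pycr1 (70.7%) lay in the middle. Mthfd2 (75.7%), Shmt2 (81.9%) and Shmt1 (91.8%) were nearest to wt, and Slc7a3 (144.2%) lay beyond it. These positions have no error of their own, and a difference between genes in this measure was not tested.

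**Figure D4:**
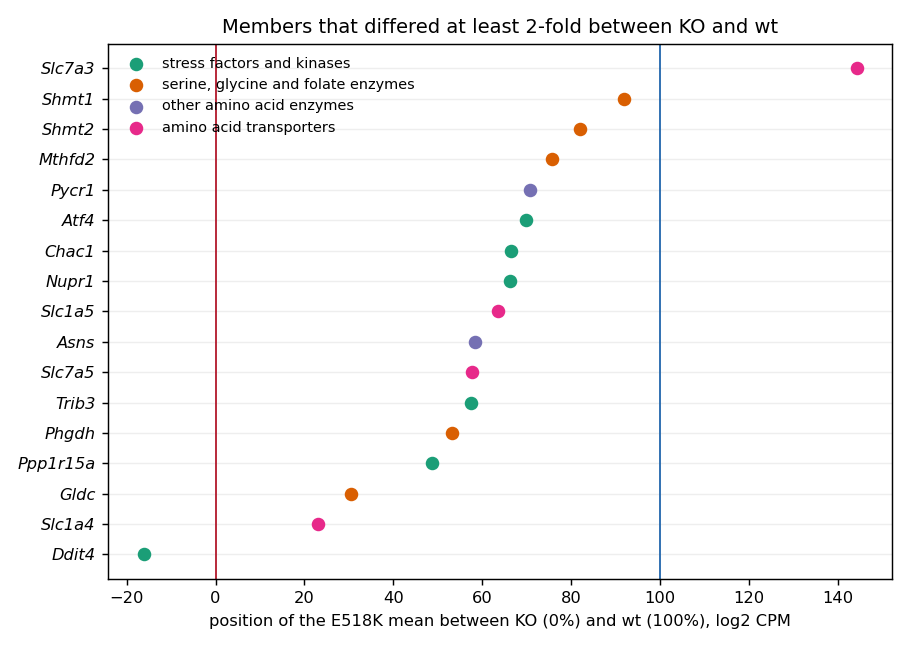
Position of the E518K mean between the KO mean (0%) and the wt mean (100%) on the log2 CPM scale, for the 17 members that differed at least 2-fold between KO and wt; each point is 1 gene, coloured by role. The points run from Ddit4 at -16.1% to Slc7a3 at 144.2%, with 15 of them between the KO and wt lines.

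Replicate spread differed between the groups. Among the members, the larger of the paired KO values was at most 1.08 times the smaller, with a median of 1.04, and no member exceeded 1.2. In E518K 3 members exceeded 1.2, with a median of 1.05, and in wt 11 did, with a median of 1.13. Both KO titles carry clone number 261, so the KO libraries may be cultures of 1 clone, although the study's design names independent clones, and p-values measure the spread between these libraries, which may be technical for KO.

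Other genes of the pathway were taken from 6 lists that hold no member, though a few genes, such as Cars, stand in 2 of them. Like the members, the lists were chosen with earlier results of these data known, so they are not independent evidence for the pattern of the members. Their counts are to be read against all tested genes, of which 29.7% fell and 27.4% rose in KO against wt, 12.5% fell and 11.3% rose in E518K against wt, and 22.0% rose and 19.8% fell in E518K against KO. Of 17 tested genes known as further ATF4 targets, 11 fell and 1 rose in KO against wt (median -0.84), 9 fell and 0 rose in E518K against wt (median -0.43), and 7 rose and 3 fell in E518K against KO (median 0.34). Stc2, a secreted glycoprotein, fell by 3.49 ± 0.24 in KO, and Eif4ebp1, a repressor of cap-dependent translation, fell by 1.02 ± 0.07. The cytosolic aminoacyl-tRNA synthetases load amino acids onto tRNA, and several are known ATF4 targets. Of 20, 15 fell and 2 rose in KO against wt (median -0.40), 1 fell and 1 rose in E518K against wt (median 0.02), and 16 rose and 0 fell in E518K against KO (median 0.33). Yars stood at 95.2 and 97.9 CPM in KO, 187.6 and 184.4 in E518K, and 206.3 and 189.5 in wt, a fall of 1.04 ± 0.07 in KO against wt, and Tars fell by 0.76 ± 0.06.

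Amino acid enzymes and transporters outside the members were mixed. Of 24 other tested enzymes of glutamine, aspartate, proline, cysteine and arginine metabolism, 13 fell and 6 rose in KO against wt and 4 fell and 8 rose in E518K against wt. In E518K against KO, 12 of these enzymes rose and 1 fell. Prodh, which breaks proline down and whose span overlaps Dgcr6, fell by 2.14 ± 0.10 in KO. Of 17 other tested transporters, 9 fell and 2 rose in KO and 7 fell and 1 rose in E518K against wt. In E518K against KO, 3 of these transporters rose and 5 fell. Slc1a3, a glutamate carrier, went from 3.41 and 6.68 CPM in wt to 0.297 and 0.233 in KO (-4.24 ± 0.40). Of 25 further folate and methionine cycle genes, 8 fell and 9 rose in KO against wt, and 3 fell and 7 rose in E518K against wt, so the lower calls were near the share over all genes in both comparisons. The higher calls lay above the shares over all genes, which were 27.4% in KO and 11.3% in E518K against wt. In E518K against KO, 9 of these 25 genes rose and 6 fell. One of the 25, Aldh1l1, a cytosolic folate dehydrogenase, fell by 1.95 ± 0.16 in KO against wt. Tdh, the threonine dehydrogenase that supplies glycine in mouse embryonic stem cells, did not pass in KO against wt (-0.04 ± 0.10, adjusted p = 0.741), with 680.0 and 689.5 CPM in KO against 779.2 and 628.7 in wt. In KO against wt, Tdh stood at -0.19 without wt clone 16 and at 0.12 without wt clone 12. Gcat, the next enzyme of that route, fell by 0.83 ± 0.16. It overlaps another gene, whose part in this value was not tested.

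Of 20 genes of eIF2 signalling and ATF4 partners, 7 fell and 5 rose in KO against wt, near the shares over all genes. In E518K, 4 of them fell and 4 rose against wt, and 6 rose and 3 fell against KO. Eif2ak2, the gene of the double-stranded RNA sensor PKR, was at 24.7 and 26.8 CPM in KO, 14.9 and 19.0 in E518K, and 12.2 and 13.2 in wt, a rise of 1.02 ± 0.14 in KO. Eif2ak1, the gene of the haem-regulated kinase HRI, stood at -0.20 ± 0.07 (adjusted p = 0.0427), a call that was lost without KO library 1 (adjusted p = 0.254), KO library 3 (adjusted p = 0.158), either E518K clone (adjusted p = 0.0539 and 0.0510) or wt clone 12 (adjusted p = 0.0643). Impact, an inhibitor of GCN2, rose by 0.97 ± 0.09 in KO. Cebpb, a partner of ATF4 on the composite element, was low in all groups, at 1.41 and 1.17 CPM in KO, 1.06 and 0.974 in E518K, and 3.66 and 3.48 in wt. It fell by 1.47 ± 0.22 in KO and fell by 1.81 ± 0.23 in E518K against wt. Cebpb and Eif2ak1 each overlap another gene and can share reads with it, and the part of this in their values was not tested. Cebpg fell by 0.34 ± 0.08 in KO, a call lost without KO library 1 or 3 (adjusted p = 0.0796 and 0.117). Atf3, a stress factor induced by ATF4, did not pass in KO (-0.45 ± 0.28, adjusted p = 0.203) and fell by 1.37 ± 0.29 in E518K against wt, a call lost without E518K clone 8 or 15 (adjusted p = 0.100 and 0.0686).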

How the data were processed

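Poly(A)-selected RNA from 6 cultures was read on a BGISEQ-500 (paired ends, per the labels' protocols). The deposited file of raw counts gives whole numbers per gene symbol and library. The deposited TPM file was scaled by the authors to an equal sum per library, and the lengths it implies match a gene's genomic extent to within 5% for 98.5% of 12893 genes. The submitters' processing notes name STAR, bedtools and GRCm38.p6, with no version or role. For genes inside another on the other strand, the outer gene had at least as many counts in 99.0% of 308 pairs, so counts behave as reads over whole spans on either strand, and overlapping genes can share reads. Of the members, 5 overlap another gene of the table and 0 hold an annotated miRNA hairpin. Coordinates are from GENCODE M21 on GRCm38.

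Counts were tested here with edgeR 4.0.16 in R 4.3.3 (TMM, the default expression filter, robust quasi-likelihood F test) in 1 fit over all 6 libraries by group, with 3 residual degrees of freedom and Benjamini-Hochberg adjustment over 16498 genes. The standard error is the size of the log2 fold change divided by the square root of F. The spread between libraries (biological coefficient of variation) was 2.60% for KO, 9.19% for E518K and 20.6% for wt. The code was tested on simulated data. Alternatives were DESeq2 1.42.0, DESeq2 or upper-quartile size factors, no filter, limma 3.58.1 on log2(TPM + 1) or log2(TPM + 0.1), only the 4 libraries compared, summed KO libraries, genes without overlaps, and each library left out. All members are named. Of each other list, the 3 genes with the smallest p in KO against wt could be named, and Dgcr8, Tdh, Gcat, Dld, Cebpb, Cebpg, Atf3, Eif2ak1 and Eif2ak2 by name. The members and lists were chosen with earlier results of these data known.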

Additional observations from a re-analysis of the deposited data

How the results depend on the processing

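Of the members called, 24 of 28 in KO against wt, 9 of 20 in E518K against wt and 19 of 25 in E518K against KO kept their direction and their call under every alternative that tested them, and no called member changed direction. Leaving out 1 library at a time gave 1 to 5 members higher and 23 to 29 lower in KO against wt, 0 to 5 higher and 9 to 23 lower in E518K against wt, and 18 to 27 higher and 1 to 4 lower in E518K against KO. The number higher in KO against wt was 1 with upper-quartile factors, with the KO libraries summed and with only the 4 libraries compared. The number higher in E518K against wt was 0 in both limma runs, where Slc7a3 and Cth did not pass. The number lower in E518K against KO was 1 without the low-count filter, with overlapping genes left out (31 members tested) and with summed KO libraries, and 4 with only the 4 libraries compared. Dgcr8 in KO against wt (-3.95) lost its call when KO library 1 or 3 was left out (adjusted p = 0.0586 and 0.0625), when wt clone 16 was (-2.35, adjusted p = 0.0535), with no filter (adjusted p = 0.0601) and with summed KO libraries (adjusted p = 0.0568).

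Genes that did not pass in the results above passed or changed sign in some settings. Cbs was lower in KO against wt with DESeq2 (adjusted p = 0.0143) and with upper-quartile factors in edgeR (adjusted p = 0.0321). Pycr1 was lower in E518K against wt in the same settings (adjusted p = 0.0283 and 0.0421). Upper-quartile factors also gave lower Mthfd1l and Eif2ak4 in KO against wt. In both limma runs Atf5 was higher in KO against wt, Shmt2 lower in E518K against wt and Ddit4 lower in E518K against KO. With upper-quartile factors Gpt2 was at -0.0069 in KO against wt, and Psat1 at -0.041 and Mthfd1l at -0.037 in E518K against wt. In limma on log2(TPM + 1) and on log2(TPM + 0.1), Psat1 was at -0.055 and -0.056, Psph at -0.013 and -0.014 and Mthfd1l at -0.042 and -0.051 in E518K against wt. In the same runs Slc38a2 was at -0.048 and -0.048, Gpt2 at -0.081 and -0.085 and Eif2ak4 at -0.0071 and -0.0099 in E518K against KO, and Tdh at 0.015 and 0.015 in KO against wt. With 1 library left out, the range in KO against wt was -0.11 to 0.27 for Slc38a2, -0.080 to 0.19 for Gpt2 and -0.19 to 0.12 for Tdh. In E518K against wt it was -0.16 to 0.0096 for Atf5, -0.073 to 0.089 for Psat1, -0.00063 to 0.11 for Psph, -0.18 to 0.017 for Shmt1, -0.059 to 0.083 for Mthfd1l, -0.042 to 0.34 for Slc38a2, -0.56 to 0.19 for Cbs and -0.053 to 0.22 for Gpt2. In E518K against KO it was -0.020 to 0.17 for Slc38a2 and -0.0054 to 0.060 for Gpt2.

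Over all genes, the 3917 calls in E518K against wt became 644 without E518K clone 15, 1650 without clone 8, 1908 and 1907 without KO library 1 or 3, 6987 without wt clone 16, 1909 with summed KO libraries and 1999 with only the 4 libraries compared. The 9429 in KO against wt became 6196 and 6084 without KO library 1 or 3 and 6163 with summed KO libraries. The 6902 in E518K against KO became 3285 and 3306 without KO library 1 or 3, 4042 without E518K clone 8 and 3267 with summed KO libraries. With only the 4 libraries compared, the calls in E518K against KO rose to 9530 of 16194 tested genes, and those in KO against wt went to 8705. Calls in both of these comparisons also rose when wt clone 12 or 16 was left out. The cause of these changes was not tested. No paired analysis was possible because the groups share no replicate numbers (KO 1 and 3, wt 12 and 16, E518K 8 and 15).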
